A study of Mus musculus with 12 samples.

Results

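The Cyp2 family of cytochrome P450 genes was followed in mouse liver across genotype and thyroid state. Members were the transcript clusters (1 set of probes per gene locus) whose gene symbol in the platform annotation was Cyp2, a subfamily letter and a number. The rule found 43 genes of the 19938 named by the annotation, each with 1 cluster, in 13 subfamilies: 13 Cyp2c, 9 Cyp2d, 6 Cyp2j, 5 Cyp2b and 2 Cyp2a genes, and 1 gene each of Cyp2e, Cyp2f, Cyp2g, Cyp2r, Cyp2s, Cyp2t, Cyp2u and Cyp2w. All 43 symbols matched a RefSeq gene of the mouse assembly GRCm38.p6.

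Liver RNA of 12 mice was hybridised to Affymetrix mouse Gene 1.0 ST arrays in 4 groups of 3. Control mice were euthyroid in replicates 13, 14 and 15 and hypothyroid in replicates 17, 18 and 20. Mutant mice, called L-NCoR∆ID by the series, were euthyroid in replicates 2, 3 and 4 and hypothyroid in replicates 5, 6 and 7. NCoR is a corepressor of nuclear receptors, and the series asks what NCoR does in positive and in negative gene regulation. No source used here gives the promoter that drives the alteration, the strain and age of the mice or the way in which they were made hypothyroid. Values of a group are listed below in the order of these replicate numbers. No cluster with 1 gene symbol was named Ncor1, so its level was not analysed here. Clusters with several symbols were not searched for it. Values are log2 signals from RMA, a method that corrects background, normalizes arrays and summarises probes, so that a difference of 1 is a doubling.

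Cytochromes P450 are heme enzymes that insert oxygen into their substrates with electrons from P450 oxidoreductase. The Cyp2 enzymes of the liver lie in the endoplasmic reticulum and oxidise drugs, steroids, bile acids, arachidonic acid and solvents. Many Cyp2b and Cyp2c genes answer to the xenobiotic receptors CAR and PXR, and many Cyp2b, Cyp2c and Cyp2d genes differ between male and female mice through the pattern of growth hormone secretion. NCoR holds unliganded nuclear receptors, among them the thyroid hormone receptor, in a repressing complex.

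The arrays were alike in level, with medians from 4.16 to 4.32. Xist lay between 9.25 and 9.97 and the Y-linked genes between 1.57 and 2.54 on every array, as in female mice; the labels do not state the sex. The SD of the log2 values over all clusters of an array lay between 2.219 and 2.285 in euthyroid controls, 2.288 and 2.296 in hypothyroid controls, 2.259 and 2.307 in euthyroid mutants and 2.316 and 2.35 in hypothyroid mutants. Hepatocyte markers were high on all arrays, with a mean of 8 genes (Alb and Ttr among them) between 12.13 and 12.36. The mean of 12 Kupffer cell and macrophage markers lay between 5.86 and 5.98 in euthyroid controls, 5.35 and 5.53 in hypothyroid controls, 6.19 and 7.25 in euthyroid mutants and 5.37 and 6.22 in hypothyroid mutants. In hypothyroid against euthyroid mice, averaged over genotypes, 4 of these 12 were called lower (against 1.87% of all clusters) and none higher. In mutants against controls, averaged over thyroid states, 1 of 12 (Adgre1) was called higher, where 1.14% of all clusters were called. The mean of 5 cholangiocyte markers lay between 3.77 and 4.05 and that of 5 lymphocyte markers between 2.96 and 3.54. In hypothyroid mice averaged over genotypes, 1 of the 8 hepatocyte markers (Ttr) was called higher, against 4.18% of all clusters. No endothelial, stellate, cholangiocyte or lymphocyte marker was called in the averaged comparisons. Within each genotype, array SD was higher in every hypothyroid mouse than in every euthyroid mouse. It was also higher in every hypothyroid mutant than in every hypothyroid control. A fit with array SD as a covariate therefore cannot separate array SD from thyroid state. The part of array SD and of other cells in the Cyp2 differences was not tested beyond the fit with array SD given below. In whole liver, fewer cells of a type and less RNA per cell cannot be told apart.

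Of the 43 members, 31 had a mean above 4.21, the median over all clusters of the table, and 12 lay below it. The 12 were Cyp2b19, Cyp2b23, Cyp2c65, Cyp2c66, Cyp2d11, Cyp2d12, Cyp2g1, Cyp2j11, Cyp2j12, Cyp2j13, Cyp2s1 and Cyp2t4; none of them was called in any comparison. Some genes of a subfamily are close relatives. Among the protein-coding genes of RefSeq, the Cyp2c members lie on chromosome 19 and 8 Cyp2d members on chromosome 15. Cyp2d13 was not among those protein-coding genes. Of 91 pairs of promoters from the same subfamily, 15 were at least 70% identical over the 300 bases from 250 before to 50 after the start, and of 504 pairs from different subfamilies 0 were. The extent to which probes of 1 member also bind the RNA of a close relative was not tested, and values of close relatives are uncertain to that degree.

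Cyp2b9 and Cyp2b13, both known as female-enriched P450s, had the widest spread between mice of 1 group among the 21789 clusters with 1 symbol, and their promoters are printed because they are almost the same sequence. Cyp2b10, the usual marker of CAR activity, is printed as the next relative. Capitals mark AGGTCA, the core element that nuclear receptors bind, on the strand printed; sequences are from RefSeq GRCm38.p6, 5′ to 3′.
Cyp2b9, chr7:26173159-26173458, plus strand: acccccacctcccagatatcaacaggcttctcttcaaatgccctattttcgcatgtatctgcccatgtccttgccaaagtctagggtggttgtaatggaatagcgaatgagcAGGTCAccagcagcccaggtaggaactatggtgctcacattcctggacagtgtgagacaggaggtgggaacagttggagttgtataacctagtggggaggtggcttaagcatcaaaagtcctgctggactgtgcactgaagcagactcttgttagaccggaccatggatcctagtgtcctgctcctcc
Cyp2b13, chr7:26061245-26061544, plus strand: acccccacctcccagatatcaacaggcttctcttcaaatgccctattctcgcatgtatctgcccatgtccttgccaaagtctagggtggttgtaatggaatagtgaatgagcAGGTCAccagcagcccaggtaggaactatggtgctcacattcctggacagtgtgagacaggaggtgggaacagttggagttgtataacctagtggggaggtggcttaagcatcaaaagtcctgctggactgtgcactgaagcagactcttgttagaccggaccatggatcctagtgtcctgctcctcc
Cyp2b10, chr7:25897408-25897707, plus strand: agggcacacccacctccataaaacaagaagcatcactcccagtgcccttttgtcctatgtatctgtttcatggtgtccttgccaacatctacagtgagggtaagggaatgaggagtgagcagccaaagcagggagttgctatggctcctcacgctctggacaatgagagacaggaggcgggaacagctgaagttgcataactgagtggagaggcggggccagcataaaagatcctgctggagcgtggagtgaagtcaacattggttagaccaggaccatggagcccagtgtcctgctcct

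The promoters of Cyp2b9 and Cyp2b13 were identical at 298 of 300 bases and differed by T48C and C104T, counted from 1 at the 5′ end with the Cyp2b9 base first. Both held AGGTCA at position -138 from the start. Cyp2b10 was identical to Cyp2b9 at 218 bases (72.7%) and held no AGGTCA in this window.

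The signal of Cyp2b9 was 11.97, 11.22 and 11.35 in the euthyroid controls, 2.56, 11.65 and 10.85 in the hypothyroid controls, 11.56, 11.49 and 10.49 in the euthyroid mutants and 10.72, 3.27 and 11.38 in the hypothyroid mutants. It was below the median of all clusters in hypothyroid control replicate 17 and hypothyroid mutant replicate 6, and high in the other 10 mice. Cyp2b13 was 2.48 and 2.19 in the same 2 mice and between 6.79 and 10.07 in the other 10. The range within the hypothyroid controls, 9.09 for Cyp2b9 and 7.59 for Cyp2b13, ranked 1 and 2 among 21789 clusters. Neither gene was called in any comparison; for Cyp2b9 the hypothyroid minus euthyroid difference in controls was -3.16 (95% interval -7.51 to 1.19, adjusted p = 0.537), and that in mutants was -2.72 (-7.07 to 1.63, adjusted p = 0.518).

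Replicates 17 and 6 were both hypothyroid and of different genotype. Cyp2b10 was 7.74 in replicate 17 and 8.0 in replicate 6, also the lowest 2 of the 12 values, with the other 10 between 8.54 and 10.32. These 2 mice were the lowest for 5 of 43 members (Cyp2a12, Cyp2b9, Cyp2b10, Cyp2b13 and Cyp2c37; 11.6%) and for 271 of all clusters (1.24%). The members of this set were chosen after their values were seen. Xist was 9.65 in replicate 17 and 9.30 in replicate 6, within the range of the other 10 mice (9.25 to 9.97).

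Cyp2c39, an enzyme that hydroxylates retinoic acid, separated the mice in another way. It was 6.90, 6.72 and 6.58 in the euthyroid controls, 10.55, 7.12 and 6.90 in the hypothyroid controls, 11.77, 7.21 and 10.63 in the euthyroid mutants and 10.28, 10.80 and 7.38 in the hypothyroid mutants. The values left a gap, with 5 mice at 10.28 or above and 7 at 7.38 or below; the high mice included 4 of 6 mutants and 1 of 6 controls. Its mutant minus control difference was 3.14 ± 1.1 (SE, adjusted p = 0.521) in euthyroid and 1.29 ± 1.1 (adjusted p = 0.675) in hypothyroid mice, neither called. Members with a range over 3 within a group numbered 3 of 43 (6.98%), against 21 of all clusters (0.0964%).

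**Figure D1:**
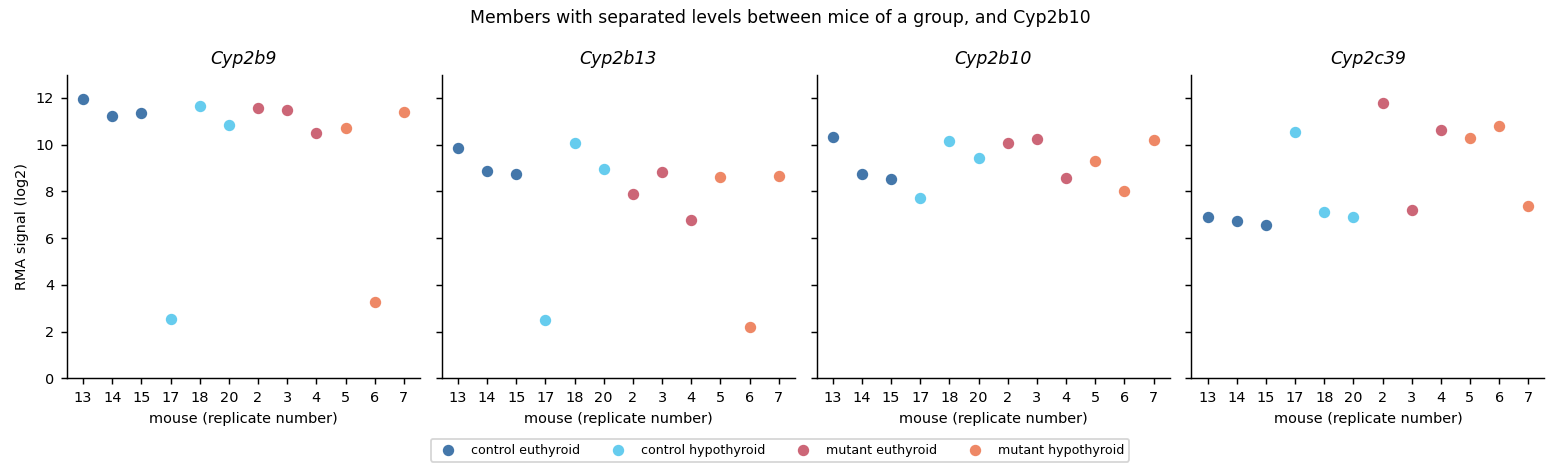
RMA signal (log2) of Cyp2b9, Cyp2b13, Cyp2b10 and Cyp2c39 in each of the 12 mice, with 1 point per mouse and colours for the 4 groups. Cyp2b9 and Cyp2b13 are at 3.27 or below in replicates 17 and 6, and Cyp2c39 lies at 10.28 or above in 5 mice and at 7.38 or below in 7.

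Hypothyroid mice were compared with euthyroid mice within each genotype and averaged over both. A difference was called at a limma adjusted p under 0.05 over all 21789 clusters with 1 symbol. Averaged over genotypes, 8 of 43 members were called (18.6%, against 6.04% of all clusters): Cyp2c29, Cyp2d9, Cyp2d22, Cyp2d26, Cyp2j6 and Cyp2j9 were higher (6 members, against 4.18% of all clusters) and Cyp2a12 and Cyp2f2 lower (2 members, against 1.87%) in hypothyroid liver. In controls alone 2 members were called (1.11% of all clusters), Cyp2d9 higher and Cyp2f2 lower. In mutants alone 3 were called (1.11% of all clusters), Cyp2c29, Cyp2d9 and Cyp2j9, all higher. The averaged and the single comparisons share the same arrays.

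Cyp2d9, a testosterone 16α-hydroxylase known as a male-enriched gene of the liver, had the largest called difference. Its promoter is printed with that of its neighbour Cyp2d10, which was not called, to show how close the 2 genes are; neither held AGGTCA, so nothing is in capitals.
Cyp2d9, chr15:82452127-82452426, plus strand: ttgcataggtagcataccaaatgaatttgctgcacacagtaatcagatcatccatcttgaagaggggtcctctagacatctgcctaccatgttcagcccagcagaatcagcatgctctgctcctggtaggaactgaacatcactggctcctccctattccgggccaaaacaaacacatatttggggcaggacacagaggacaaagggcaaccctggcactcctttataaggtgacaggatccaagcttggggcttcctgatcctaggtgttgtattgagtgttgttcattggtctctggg
Cyp2d10, chr15:82407145-82407444, minus strand: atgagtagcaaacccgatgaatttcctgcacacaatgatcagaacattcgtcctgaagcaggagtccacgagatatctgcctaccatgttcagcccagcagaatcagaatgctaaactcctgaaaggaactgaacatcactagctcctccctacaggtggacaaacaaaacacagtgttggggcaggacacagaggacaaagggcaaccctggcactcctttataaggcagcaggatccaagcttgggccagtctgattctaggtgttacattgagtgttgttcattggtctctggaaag

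The 2 promoters were identical at 251 of 300 bases (83.7%). The signal of Cyp2d9 was 7.64, 7.48 and 6.29 in the euthyroid controls, 9.49, 8.66 and 9.61 in the hypothyroid controls, 6.52, 8.08 and 6.66 in the euthyroid mutants and 9.47, 8.46 and 8.88 in the hypothyroid mutants. Every hypothyroid mouse was above every euthyroid mouse. It rose 4.33-fold in controls (log2 difference 2.11 ± 0.417 SE, adjusted p = 0.0212) and by 1.85 ± 0.417 in mutants (adjusted p = 0.0467), and 3.95-fold averaged over both (1.98 ± 0.295, adjusted p = 0.00104). Cyp2d10 was between 10.23 and 10.59 in euthyroid controls and between 10.28 and 10.67 in hypothyroid controls, which overlapped.

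Cyp2d9 stayed called in the averaged comparison without any 1 of the 12 mice. In controls alone it was not called without euthyroid replicate 15 (adjusted p = 0.0908) or hypothyroid replicates 17 (0.103) or 20 (0.109), and in mutants alone it was called in 5 of the 12 fits without 1 mouse. There the call was lost without any 1 hypothyroid mutant (replicates 5, 6 and 7), without replicate 2 or 4 of the euthyroid mutants, or without replicate 17 or 20 of the hypothyroid controls.

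Of the other Cyp2d genes, Cyp2d22, the member often set beside human CYP2D6, was 9.98, 10.32 and 10.05 in the euthyroid controls and 11.03, 10.69 and 10.62 in the hypothyroid controls. In mutants it was 9.77, 10.01 and 9.54 when euthyroid and 10.34, 10.46 and 10.49 when hypothyroid. Every hypothyroid mouse again lay above every euthyroid mouse, and the averaged difference was 0.66 ± 0.109 (adjusted p = 0.00251). Within a genotype the same difference of 0.66 missed the threshold, with an adjusted p of 0.0547 in controls and 0.0591 in mutants. 

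Cyp2d26 was 11.85, 11.98 and 11.95 in the euthyroid controls and 12.29, 12.05 and 12.26 in the hypothyroid controls. In mutants it was 11.71, 11.56 and 11.57 when euthyroid and 11.93, 11.99 and 11.90 when hypothyroid. Within each genotype the thyroid states did not overlap. It rose by 0.30 ± 0.0828 on average (adjusted p = 0.0455). Its call was kept only without euthyroid control 13 or 14 or hypothyroid control 18.

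Cyp2f2, which activates naphthalene and is a known periportal gene of mouse liver, had the largest called fall. It was 11.60, 11.53 and 11.37 in the euthyroid controls and 10.64, 10.56 and 10.30 in the hypothyroid controls, with a gap between the groups. In mutants it was 11.78, 11.65 and 11.54 when euthyroid and 10.87, 11.59 and 11.39 when hypothyroid, and these groups overlapped. It fell by 0.99 ± 0.171 in controls (adjusted p = 0.00787) and by 0.68 ± 0.121 averaged over genotypes (adjusted p = 0.00391); the difference in mutants was -0.38. Without hypothyroid control replicate 20 the call in controls was lost (adjusted p = 0.0511). Averaged over genotypes, of 8 periportal markers measured 2 rose (Hal and Hsd17b13) and 2 fell (Cdh1 at -1.68 and Sult5a1 at -3.69). Of 11 perivenous markers 4 fell (Glul, Rhbg, Tbx3 and Gulo) and none rose. Of all clusters 4.18% were called higher and 1.87% lower there. The calls of Hal, Glul and Rhbg were lost in most fits without 1 mouse, and with array SD as a covariate only those of Cdh1 and Sult5a1 were kept.

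The Cyp2f2 promoter is printed with that of Cyp2c70, the member called between genotypes within a thyroid state; AGGTCA, in capitals, lies at position -221 in Cyp2f2 and -74 in Cyp2c70.
Cyp2f2, chr7:27119705-27120004, plus strand: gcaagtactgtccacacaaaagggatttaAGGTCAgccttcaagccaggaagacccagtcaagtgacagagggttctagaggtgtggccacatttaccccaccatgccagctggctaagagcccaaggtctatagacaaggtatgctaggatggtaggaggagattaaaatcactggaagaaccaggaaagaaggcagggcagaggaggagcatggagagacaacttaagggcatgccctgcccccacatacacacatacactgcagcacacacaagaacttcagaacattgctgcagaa
Cyp2c70, chr19:40187237-40187536, minus strand: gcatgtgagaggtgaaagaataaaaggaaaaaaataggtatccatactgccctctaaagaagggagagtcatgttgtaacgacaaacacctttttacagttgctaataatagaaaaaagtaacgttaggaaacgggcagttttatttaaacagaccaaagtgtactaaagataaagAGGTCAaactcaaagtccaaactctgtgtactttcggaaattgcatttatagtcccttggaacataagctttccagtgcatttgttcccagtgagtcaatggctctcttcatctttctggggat

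AGGTCA stood in 11 of the 37 promoter entries of the 35 members in the RefSeq promoter table (29.7%), against 16.3% of 32851 promoters of the same length, both strands searched. The 11 are not independent, because some are promoters of close relatives. Cyp2b9, Cyp2b13, Cyp2b19 and Cyp2b23 were among them, each pair at least 67% identical, as were Cyp2c29 and Cyp2c39 (78.3%). TTCNNNGAA, a STAT5 motif, stood in 2 (5.41%, against 8.3%), GTTAAT, an HNF1 motif, in 2 (5.41%, against 7.1%) and TTATGTAA, the element of DBP and its relatives, in 0 (against 0.938%). The searched motifs are short strings of letters, and a match is not a bound site. Among members called in some comparison, AGGTCA was found for Cyp2c29, Cyp2c70, Cyp2d40 and Cyp2f2.

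Cyp2c29, a CAR-inducible enzyme that also epoxidises arachidonic acid, was 11.97, 11.45 and 11.51 in the euthyroid controls and 12.03, 11.85 and 12.14 in the hypothyroid controls. In mutants it was 11.87, 11.69 and 11.32 when euthyroid and 12.48, 12.34 and 12.42 when hypothyroid. The groups overlapped in controls and did not in mutants, where it rose by 0.79 ± 0.167 (adjusted p = 0.0328); the averaged rise was 0.57 ± 0.118 (adjusted p = 0.0107). The call in mutants was lost without hypothyroid control 17, euthyroid mutants 3 or 4, or hypothyroid mutants 5, 6 or 7, while the averaged call was kept without any 1 mouse.

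Cyp2j genes encode enzymes that oxidise arachidonic acid, and 2 of the 6 were called averaged over genotypes, against 6.04% of all clusters. Cyp2j9 was 5.87, 5.21 and 5.72 in the euthyroid controls, 6.26, 6.07 and 5.86 in the hypothyroid controls, 5.01, 5.06 and 4.74 in the euthyroid mutants and 5.91, 5.77 and 5.50 in the hypothyroid mutants. The groups overlapped in controls and did not in mutants. It rose by 0.79 ± 0.179 in mutants (adjusted p = 0.0478, kept only without euthyroid control 13 or 14) and by 0.63 ± 0.127 on average (adjusted p = 0.00957, kept without any 1 mouse). 

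Cyp2j6 was 7.48, 7.08 and 7.29 in the euthyroid controls, 7.82, 8.26 and 7.93 in the hypothyroid controls, 7.42, 7.80 and 7.70 in the euthyroid mutants and 7.79, 7.90 and 8.44 in the hypothyroid mutants. All hypothyroid controls were above all euthyroid controls, and the mutant groups overlapped by 1 pair of mice. It rose by 0.56 ± 0.13 on average (adjusted p = 0.0215), and the call was lost without hypothyroid control 18, euthyroid mutant 2 or hypothyroid mutant 7. Cyp2j5, an arachidonate epoxygenase of liver and kidney, differed by 0.30 ± 0.0979 on average and was not called (adjusted p = 0.083). Among 13 other genes of arachidonate and epoxide metabolism, averaged over genotypes, 2 rose (Ephx1, the microsomal epoxide hydrolase, and Cyp4a12a) and 1 fell (Ptgds). Of all clusters 4.18% were called higher and 1.87% lower there. Cyp4a12a varied widely between mice, with a largest range within a group of 4.22, rank 9 among 21789 clusters. It was 6.36, 2.76 and 2.14 in euthyroid controls and 7.85, 5.77 and 6.94 in hypothyroid controls, which overlapped.

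Cyp2a12, a steroid and bile acid 7α-hydroxylase, was 10.56, 10.49 and 10.65 in the euthyroid controls, 10.15, 10.37 and 10.30 in the hypothyroid controls, 10.54, 10.55 and 10.60 in the euthyroid mutants and 10.32, 10.21 and 10.21 in the hypothyroid mutants. Every hypothyroid mouse was below every euthyroid mouse. It fell by 0.30 ± 0.0812 on average (adjusted p = 0.0393), a small difference whose call was kept only without euthyroid control 13 or 14. Members whose hypothyroid and euthyroid mice did not overlap over both genotypes numbered 3 of 43 (Cyp2a12, Cyp2d9 and Cyp2d22), against 3.75% of all clusters.

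Without replicates 17 and 6, the 2 mice with low Cyp2b9 signal, the averaged comparison called 4 of the 8: Cyp2d9 (2.04, adjusted p = 0.00613), Cyp2f2 (-0.80, 0.00508), Cyp2d22 (0.59, 0.0262) and Cyp2j6 (0.64, 0.0488). That fit has 2 mice in each hypothyroid group. With array SD as a covariate only Cyp2f2 was called (-0.84, adjusted p = 0.0485); the difference of Cyp2d9 was then 1.75 (adjusted p = 0.137) and that of Cyp2c29 was 0.33 (0.552).

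**Figure D2:**
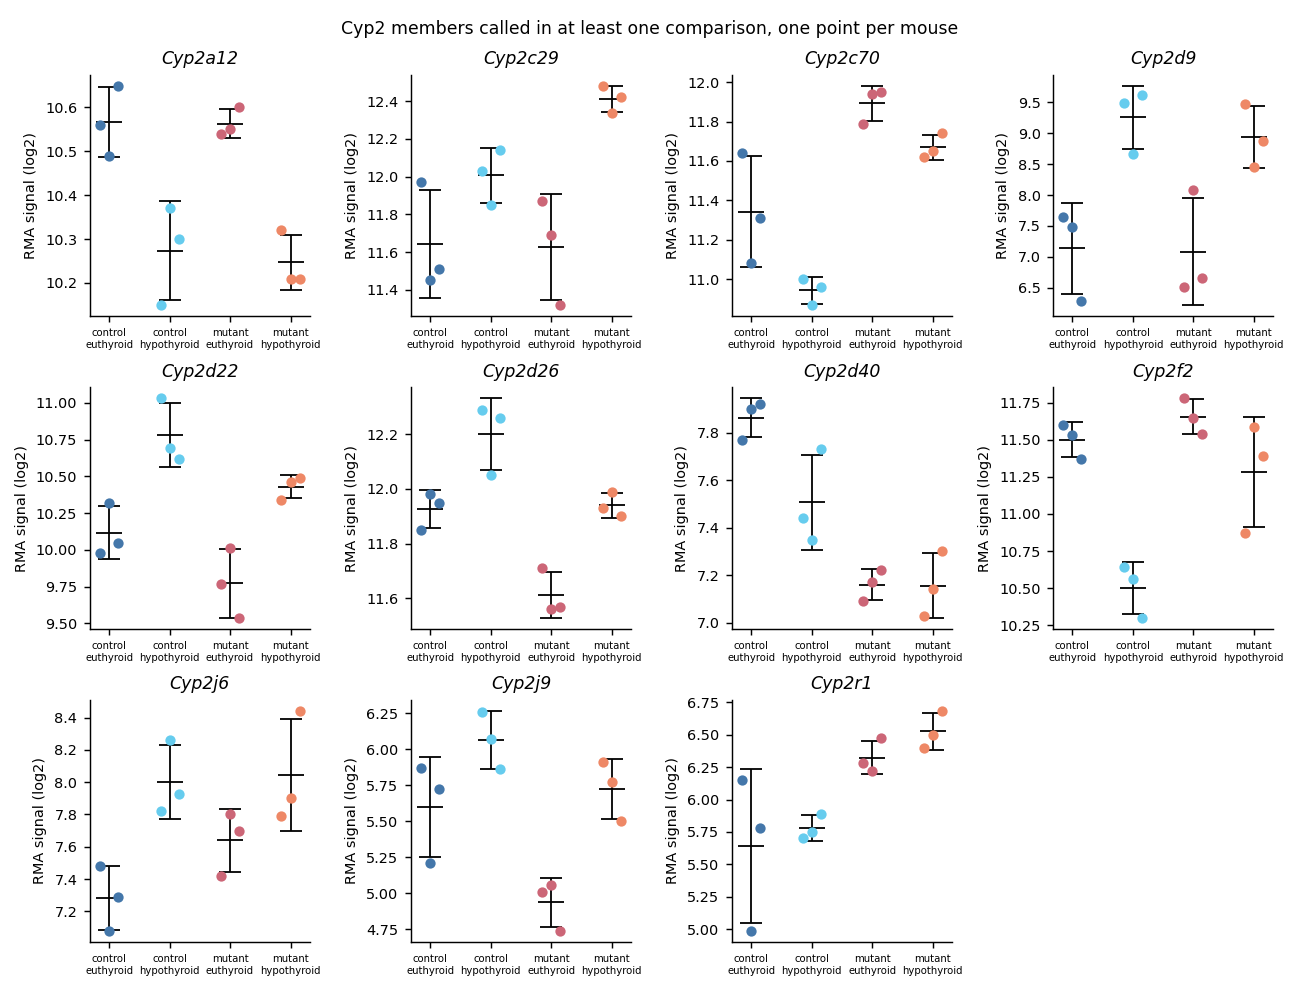
RMA signal (log2) of each member called in at least 1 comparison, with 1 point per mouse and a bar for the mean ± SD of each group (n = 3). The y axes differ between panels and do not start at 0. Cyp2d9 and Cyp2d22 are higher in all 6 hypothyroid mice than in all 6 euthyroid mice, and Cyp2f2 is lowest in the hypothyroid controls.

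Several well-known liver enzymes of the family were not called. Cyp2e1, which oxidises ethanol and acetaminophen, lay between 12.66 and 13.01 in all 12 mice. Within each genotype its hypothyroid mice were above its euthyroid mice by a narrow margin, 12.93 against 12.90 in controls and 12.71 against 12.70 in mutants. The hypothyroid minus euthyroid difference was 0.14 ± 0.0808 averaged over genotypes (95% interval -0.04 to 0.31, adjusted p = 0.306). Cyp2b10 differed by -0.27 ± 0.461 (95% interval -1.25 to 0.71, adjusted p = 0.747), an interval that reaches past a doubling in the lower direction. Cyp2a22 differed by -1.19 ± 0.437 in mutants (adjusted p = 0.218), where it was 9.45, 8.60 and 9.36 when euthyroid and 8.05, 8.16 and 7.65 when hypothyroid, without overlap.

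Groups that did not overlap were seen for 11 members in hypothyroid against euthyroid controls (25.6%, against 16.7% of all clusters). In mutants 15 members did not overlap (34.9%, against 25.7% of all clusters), with Cyp2a12, Cyp2a22, Cyp2c70 and Cyp2g1 lower and the rest higher. The largest rise among them was that of Cyp2c55, 2.08 ± 0.589, which was not called (limma adjusted p = 0.124). In controls its groups overlapped, with a difference of 0.38. By subfamily the averaged differences had a median of 0.13 over 9 Cyp2d genes (7 above 0) and 0.11 over 13 Cyp2c genes (10 above 0). The median was 0.19 over 6 Cyp2j genes (5 above 0) and -0.27 over 5 Cyp2b genes (0 above 0). Over all clusters it was -0.02 (10054 of 21789 above 0). Hypothyroid replicates 17 and 6 hold the lowest 2 values for 3 of the 5 Cyp2b genes.

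No member was called in 6 of the 8 subfamilies with 1 gene; Cyp2f2 and Cyp2r1 were the exceptions. Cyp2e1 is given above. Cyp2u1 lay between 5.21 and 6.16 over the 12 mice, with a hypothyroid minus euthyroid difference of 0.17 ± 0.137 averaged over genotypes. Cyp2g1, an enzyme of the olfactory mucosa, lay between 2.64 and 3.58, Cyp2s1 between 3.32 and 4.17, Cyp2t4 between 2.82 and 3.29 and Cyp2w1 between 3.82 and 4.56 over the 12 mice. Their hypothyroid minus euthyroid differences averaged over genotypes were -0.39, -0.21, -0.09 and -0.18, none called.

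**Figure D3:**
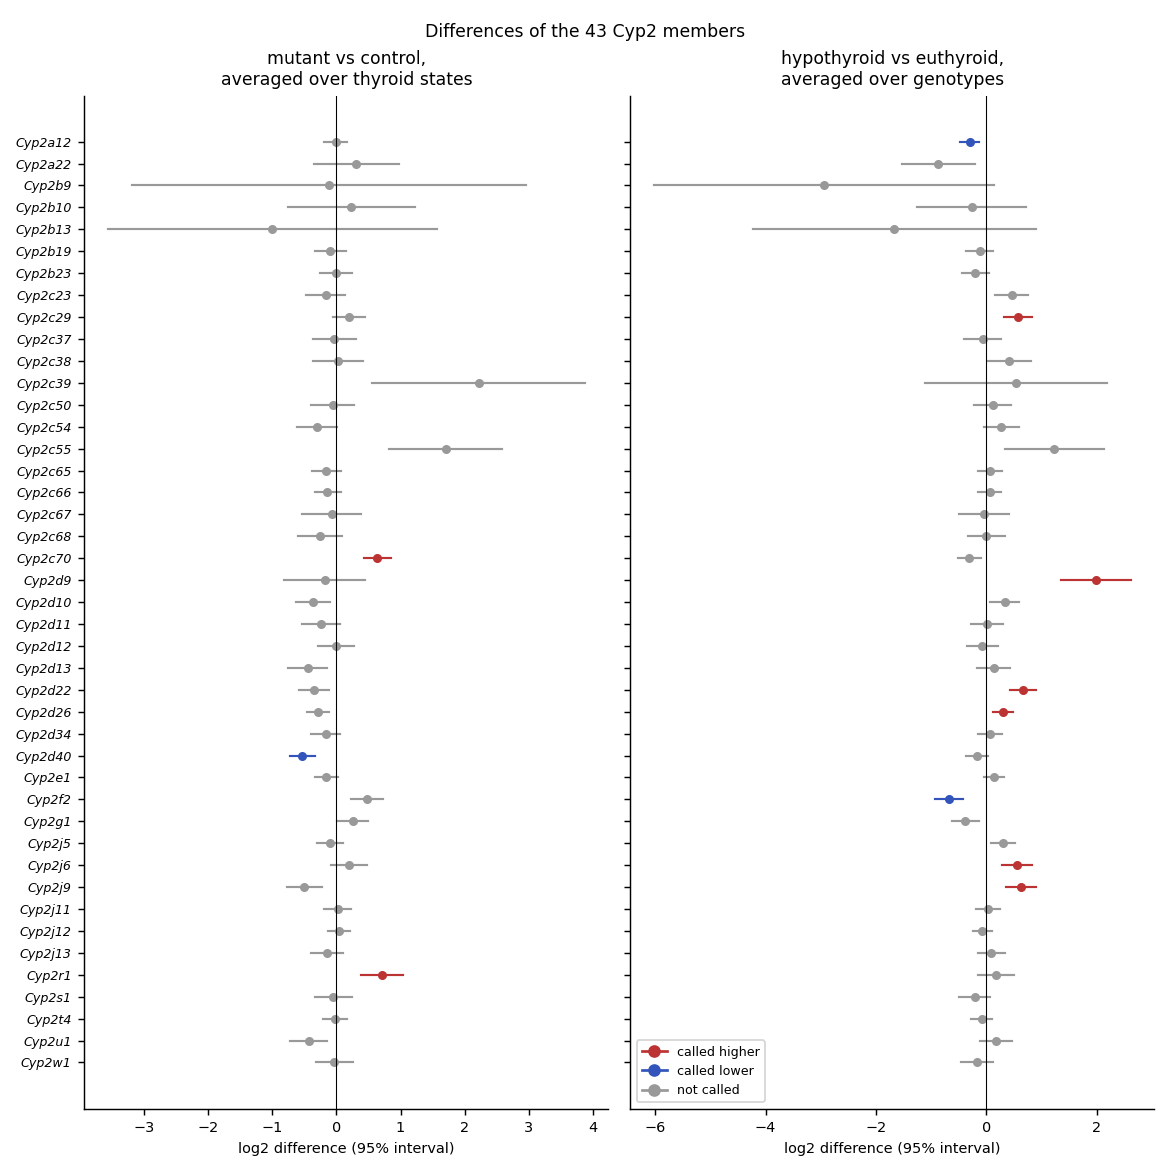
Log2 difference of each of the 43 members, ordered by subfamily from top to bottom, for mutant minus control averaged over thyroid states (left) and hypothyroid minus euthyroid averaged over genotypes (right); points are differences, lines are 95% intervals from limma, and colour marks called members. The intervals of Cyp2b9, Cyp2b13 and Cyp2c39 are the widest, and 3 members on the left and 8 on the right are called.

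Mutants were compared with controls in each thyroid state and averaged over both, which asks what the altered NCoR does to the family. In euthyroid mice 0 of 43 members were called by limma, against 0.129% of all clusters; at an unadjusted p under 0.05 there were 13 members, against 8.13% of all clusters. In hypothyroid mice 1 was called, Cyp2c70 (0.262% of all clusters). Averaged over thyroid states 3 were called (6.98%, against 1.14% of all clusters): Cyp2c70 and Cyp2r1 were higher and Cyp2d40 lower in mutants.

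Cyp2c70, the mouse enzyme that makes muricholic acids from chenodeoxycholic acid, was 11.64, 11.08 and 11.31 in the euthyroid controls and 11.79, 11.94 and 11.95 in the euthyroid mutants. In hypothyroid mice it was 11.00, 10.87 and 10.96 in controls and 11.62, 11.65 and 11.74 in mutants. Mutants were above controls without overlap in each thyroid state. It rose by 0.73 ± 0.14 in hypothyroid mice (adjusted p = 0.047), a call kept only without euthyroid control 13 or 14. Averaged over thyroid states it rose by 0.64 ± 0.0992 (adjusted p = 0.00534), which was kept without any 1 mouse; the euthyroid difference was 0.55 ± 0.14 (adjusted p = 0.244). Without replicates 17 and 6 the averaged difference was 0.66 (adjusted p = 0.0513), and with array SD as a covariate it was 0.46 (0.156).

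Cyp2r1, a vitamin D 25-hydroxylase, was 6.15, 4.99 and 5.78 in the euthyroid controls, 5.70, 5.75 and 5.89 in the hypothyroid controls, 6.28, 6.22 and 6.47 in the euthyroid mutants and 6.40, 6.50 and 6.68 in the hypothyroid mutants. Every mutant was above every control, the highest control at 6.15 and the lowest mutant at 6.22. It rose by 0.71 ± 0.152 on average (adjusted p = 0.0359), a call kept only without euthyroid control 13 or 14; without control 14, the lowest mouse, the difference was 0.55 (adjusted p = 0.0189). Without replicates 17 and 6 it was 0.70 (adjusted p = 0.215), and with array SD as a covariate 0.39 (0.557).

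Cyp2d40 was 7.77, 7.90 and 7.92 in the euthyroid controls, 7.44, 7.35 and 7.73 in the hypothyroid controls, 7.09, 7.17 and 7.22 in the euthyroid mutants and 7.03, 7.14 and 7.30 in the hypothyroid mutants. Every mutant was below every control. It fell by 0.53 ± 0.0926 on average (adjusted p = 0.0113), kept without any 1 mouse; the euthyroid difference of -0.70 ± 0.131 missed the threshold (adjusted p = 0.0536). Without replicates 17 and 6 the averaged difference was -0.54 (adjusted p = 0.095), and with array SD as a covariate it was -0.53 (0.129). Cyp2d40 and Cyp2r1 were the 2 members whose mutants and controls did not overlap over both thyroid states, against 1.05% of all clusters.

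The other Cyp2d genes also had lower means in euthyroid mutants, without a call. With array SD as a covariate, Cyp2d13, not listed as protein coding in RefSeq, was called lower there and averaged over thyroid states. In euthyroid mice the differences of all 9 Cyp2d members lay below 0, from -0.71 to -0.05 with a median of -0.35. The median was 0.00 over all clusters, of which 10884 of 21789 lay below 0. It was -0.15 over all 43 members, of which 31 lay below 0. Below 0 in the same comparison were also 9 of 13 Cyp2c, 5 of 6 Cyp2j and 4 of 5 Cyp2b members. All 9 Cyp2d members stayed below 0 with quantile normalization and with median centring. Averaged over thyroid states it was 9 of 9 (11676 of 21789 clusters), and 8 of 9 under each of those scalings. The 9 members are not independent, because they were measured in the same mice and some are close relatives. Cyp2d11 and Cyp2d12 also lay below the median signal of the table. Cyp2d13 was 9.46, 9.20 and 9.54 in euthyroid controls and 8.47, 9.10 and 8.48 in euthyroid mutants (-0.71 ± 0.199, adjusted p = 0.317), and Cyp2d10 was 10.38, 10.59 and 10.23 against 9.45, 10.15 and 9.86 (-0.58 ± 0.175, adjusted p = 0.402). Neither pair of groups overlapped. Euthyroid mutant replicate 2 was the lowest of the 12 mice for Cyp2d10 (9.45) and Cyp2d13 (8.47), and also for Cyp2c23 (10.13), Cyp2c54 (9.24), Cyp2c67 (8.20) and Cyp2c68 (8.31), which were picked after their values were seen. On the cluster that Cyp2c67 and Cyp2c68 share with relatives, replicate 2 (10.60) was not the lowest, with hypothyroid control 17 at 10.41.

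Mutants and controls did not overlap for 11 members in euthyroid mice (25.6%, against 10.4% of all clusters). In hypothyroid mice they did not overlap for 8 members (18.6%), a smaller share than the 22.5% of all clusters. Higher in euthyroid mutants were Cyp2c39, Cyp2c70, Cyp2g1 and Cyp2r1. Lower were Cyp2d10, Cyp2d13, Cyp2d26, Cyp2d40, Cyp2e1, Cyp2j9 and Cyp2u1. Beyond those described, the euthyroid set held Cyp2j9 (-0.67 ± 0.179, adjusted p = 0.279) and Cyp2u1, a hydroxylase of long-chain fatty acids (-0.59 ± 0.193, adjusted p = 0.472). The hypothyroid set held Cyp2c55, an arachidonate hydroxylase that answers to CAR and PXR. Cyp2c55 was 3.87, 5.59 and 5.0 in hypothyroid controls and 7.05, 7.01 and 8.07 in hypothyroid mutants, while the euthyroid groups, at 5.84, 3.45 and 4.04 and at 4.29, 6.33 and 5.27, overlapped. Its difference in hypothyroid mice was 2.56 ± 0.589, which is 5.88-fold, and it was not called (adjusted p = 0.114).

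A difference of the mutant effect between thyroid states was called for 0 of 43 members by limma (0% of all clusters). The lowest adjusted p was 1 among members and 0.287 among all clusters. At an unadjusted p under 0.05 there was 1 member, Cyp2f2, whose mutant minus control difference was 0.16 in euthyroid and 0.78 ± 0.171 in hypothyroid mice (adjusted p = 0.0832 for the second), a difference between them of 0.62. For Cyp2c55 the difference between thyroid states was 1.70 ± 0.832 (95% interval -0.08 to 3.47).

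**Figure D4:**
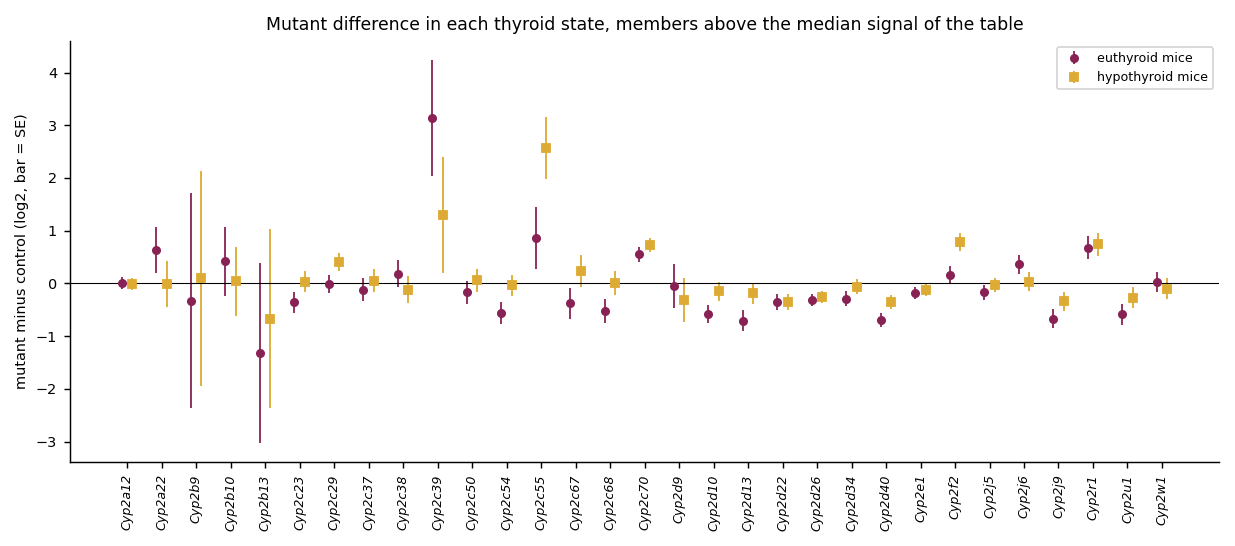
Mutant minus control log2 difference (y axis) of the 31 members above the median signal of the table (x axis), in euthyroid mice (circles) and hypothyroid mice (squares), with bars of 1 SE. Cyp2c70 and Cyp2r1 lie above 0 and Cyp2d40 below 0 in both states, and Cyp2c55 and Cyp2f2 lie higher in hypothyroid mice.

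The genes that serve or control the family were read from gene lists. Of 12 P450 partners and heme synthesis genes measured, 0 were called by limma between genotypes on average, against 1.14% of all clusters. Between thyroid states 1 was called, against 6.04% of all clusters: Cyb5b, a cytochrome b5 (0.37, adjusted p = 0.0449). Of 26 regulators, CAR (Nr1i3) fell by 0.65 ± 0.14 in mutants (adjusted p = 0.0365) and rose by 0.51 ± 0.14 in hypothyroid mice (adjusted p = 0.0429), and PXR (Nr1i2) rose by 0.42 ± 0.107 in hypothyroid mice (adjusted p = 0.0329). These calls, and that of Cyb5b, were each lost in most of the 12 fits without 1 mouse. Stat5a, a STAT5 gene of the growth hormone pathway, fell by 0.72 ± 0.099 in hypothyroid mice (adjusted p = 0.000514). Onecut1, a liver factor also called HNF6, fell by 0.90 ± 0.156 there (adjusted p = 0.00337). Both calls were kept without any 1 mouse, and all of these calls of partners and regulators were lost with array SD as a covariate.

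Stat5a was 6.77, 6.83 and 6.77 in the euthyroid controls and 6.09, 6.14 and 5.86 in the hypothyroid controls, and 7.01, 6.78 and 6.94 against 6.27, 6.43 and 5.96 in the mutants. For Stat5a the hypothyroid mice were all below the euthyroid mice. Stat5b, the other STAT5 gene on the list, was not called between thyroid states. It was 7.58, 7.28 and 7.30 in the euthyroid controls and 6.78, 7.09 and 7.03 in the hypothyroid controls. In mutants it was 7.56, 7.39 and 7.45 when euthyroid and 7.12, 7.23 and 7.59 when hypothyroid. Of 15 other genes that answer to CAR and PXR, 9 rose in hypothyroid mice averaged over genotypes, against 4.18% of all clusters. None fell, and the 9 included Gstm3 (1.94) and Abcc4 (1.70). Whether CAR or PXR activity differed was not tested. The calls of 4 of the 9 (Gstm1, Gstm3, Abcc3 and Abcc4) were kept when array SD was a covariate. Of the 12 fits without 1 mouse, Abcc2 was called in 2, Aldh1a1 in 6 and Aldh1a7 in 7, and the others of the 9 in all 12. In controls alone 4 rose and 1 fell, Cyp3a11 (-0.92 ± 0.191, adjusted p = 0.0293), a call lost without euthyroid control 14 or hypothyroid control 17 or 20. In mutants alone 6 rose and none fell. Of all clusters 1.11% were called in each of these comparisons within a genotype. In mutants against controls, averaged over thyroid states, 5 of these 15 rose and none fell, where 1.14% of all clusters were called. Among the 5, Ces2a rose by 1.47 ± 0.0989 (adjusted p = 2.8e-06) and Cyp3a11 by 0.74 ± 0.135 (adjusted p = 0.0151). Of these 5 calls, those of Abcc4 and Gadd45b were lost in most fits without 1 mouse, that of Cyp3a11 without hypothyroid control 17 (adjusted p = 0.0548), and all but that of Ces2a with array SD as a covariate. The list medians were 0.51 for hypothyroid and 0.27 for mutant mice, against -0.02 and -0.01 over all clusters. Cyp2b10, the member that most often stands for CAR activity, was not called in either, with a mutant minus control difference of 0.23 ± 0.461 on average (adjusted p = 0.83).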

How the data were processed

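Expression was measured in liver RNA of 12 mice, 1 array each as far as the labels show. RNA was taken up in Trizol, cleaned on RNeasy columns and hybridised as terminal-labelled cDNA, per the labels' protocols. The authors deposited log2 signals made with RMA, per the submitters' processing notes; no source used here gives its version, the feature build or scan dates, and batches were not tested. Of 35557 clusters, 21789 had 1 symbol in the platform annotation, 1621 several and 12147 none.

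The 4 group means were estimated over all 12 arrays and all 21789 clusters with limma 3.58.1 in R 4.3.3 (residual degrees of freedom 8, prior 6.83), with Benjamini-Hochberg adjustment within each of the 7 comparisons and no filter on level. The p-values measure the spread between these mice. The fit was tested on simulated data. Promoters were aligned with Biopython 1.88.

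Members described in full were those called in any comparison, the highest or only member of a subfamily, and the largest differences without overlap. Members and lists were chosen with earlier results of these data known. Alternatives were other scalings and filters, array SD as a covariate, an intensity trend, only the groups compared, and leaving out mice; leaving out replicates 17 and 6 together was added after seeing the data.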

Additional observations from a re-analysis of the deposited data

How the results depend on the processing

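Counts of called members are given in this order: mutant against control in euthyroid, in hypothyroid and averaged; hypothyroid against euthyroid in controls, in mutants and averaged. They were 0, 1, 3, 2, 3 and 8. Leaving out 1 mouse in turn gave 0 to 3, 0 to 2, 2 to 7, 0 to 3, 0 to 5 and 5 to 13, and 0 to 0 for the difference between thyroid states. With array SD as a covariate they were 1, 0, 1, 1, 0 and 1. All calls but the 2 of Cyp2f2 were then lost, while Cyp2d13 was newly called lower in euthyroid mutants and in mutants on average. Array SD separated the thyroid states within each genotype, so this fit cannot tell array SD from thyroid state. The cause of the lost and new calls was not tested. Without replicates 17 and 6 the hypothyroid mutant count was 0, the averaged mutant count 0, and the hypothyroid counts 1, 0 and 4. Without euthyroid control 14 and hypothyroid mutant 7, the hypothyroid mutant count was 0 and the count for hypothyroid mutants against euthyroid mutants 1. Every cluster of the table gave 0 for mutants in hypothyroid mice and 1, 0 and 5 for the hypothyroid comparisons, with more clusters to adjust over. Quantile normalization gave 1 for euthyroid mutants and 0 for hypothyroid against euthyroid mutants, median centring 0 for hypothyroid mutants, and clusters above the median level 1 for euthyroid mutants. An intensity trend gave 2 for hypothyroid mutants, and a fit of only the groups compared gave 3 for them and 5 for hypothyroid against euthyroid mutants. No called member changed sign under any setting. No paired analysis was possible because the groups share no replicate numbers. The number of arrays, 3 per group, limits the precision.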

Other observations

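Clusters that the annotation gives to several Cyp2 genes numbered 2 and were not counted as members. The cluster of Cyp2a5 and Cyp2a4, coumarin and steroid hydroxylases, was 10.47, 11.49 and 11.89 in euthyroid controls, 12.37, 11.42 and 12.04 in hypothyroid controls, 11.57, 11.32 and 11.63 in euthyroid mutants and 12.32, 12.29 and 11.91 in hypothyroid mutants. Its hypothyroid minus euthyroid difference was 0.66 ± 0.232 on average and was not called (limma adjusted p = 0.145). The cluster shared by Cyp2c69, Cyp2c67, Cyp2c68 and Cyp2c40 differed by -0.31 ± 0.174 (adjusted p = 0.337). Its mutant minus control difference in euthyroid mice was 0.08 ± 0.246 (limma adjusted p = 0.963). The clusters of Cyp2c67 and Cyp2c68 alone differed there by -0.38 and -0.53, neither called.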
